A study of Clytia hemisphaerica and Astroides calycularis and Pocillopora acuta with 17 samples.

Results

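The 100 genes described here are those whose transcripts followed ELAV from cell to cell in the planula, the swimming larva, of the coral Astroides calycularis. They were chosen from the measured values themselves. In cells with 300 to 10000 unique molecular identifiers (UMIs, each 1 captured RNA molecule), 200 to 3000 genes and at most 0.4% mitochondrial UMIs, UMIs were scaled to 10000 per cell and log-transformed, and Pearson's r with ELAV (STRG.3504) was taken in unsorted and in sorted cells apart. Of the 28330 features in the files, 13278 were found in at least 50 cells. The members are the 100 with the highest lower r of both samples, without ELAV and without genes that the study names in its text or tables. STRG.2865 and STRG.18268, which the study names only in heat maps, were kept. The correlation with ELAV, and any difference between neural and other cells that follows from it, is therefore the reason for the choice and is given as a description with no test.

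Single cells of planulae of 3 cnidarians were captured with 10x Genomics chemistry, and Astroides gave 2 biological samples of untreated larvae released by wild colonies. Each was a pool of larvae from 1 dissociation, fixed in an acetic acid and methanol mixture (ACME) and frozen. One was loaded unsorted, and the other was stained with DRAQ5 and sorted to discard debris and doublets, then captured in 2 runs that are technical replicates, the first of which pools 2 libraries. Because sorting, larvae and capture changed together, sorted and unsorted values cannot be told apart by cause. The orthologs were followed in planulae of the coral Pocillopora acuta from colonies C3 and C6, which share a genotype and carry symbiotic dinoflagellates, and in planulae of the hydrozoan jellyfish Clytia hemisphaerica at 52 and 66 hours postfertilization and from ACME-dissociated and methanol-fixed cells of an earlier dataset. Per the study the Pocillopora cells and the 52 and 66 hour Clytia cells were fixed in ACME as well. The name ACME sample below therefore marks the earlier dataset, not a fixation of its own.

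ELAV proteins bind RNA and regulate splicing and stability of messages in neurons, and their genes serve as markers of nerve cells in many animals, cnidarians included. AshA belongs to the achaete-scute family of helix-loop-helix transcription factors, which promote neural fate. The nervous system of a planula is a net of sensory and ganglion cells, many of which release short amidated peptides such as GLWamides and RFamides that are cut from long precursors. Of the 100 members, 89 carried no domain, signal peptide or note in the study's tables, so their function is not given here and they are called by their gene model number. The other 11 included a tubulin, a peptide-type receptor, a ligand-gated ion channel, a carboxypeptidase and a helix-loop-helix factor.

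The unsorted sample held 4566 barcodes with 5138992 UMIs, and the sorted runs 6973 and 9966 barcodes with 9359884 and 13849472 UMIs. Of these, 3869, 6682 and 9382 cells were kept, with medians of 814, 961.5 and 1041 UMIs. Barcode sequences shared between any 2 of the 3 matrices numbered 7 to 21 among the kept cells, at most 0.314% of the smaller matrix. No doublet caller was run here. At least 1 UMI of ELAV was held by 3329 of the kept cells.

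The strongest correlations with ELAV were moderate for single cells, and they were of like size in both samples. STRG.33540 led with r of 0.468 in unsorted and 0.475 in sorted cells, above AshA, whose r was 0.399 and 0.459. STRG.14064 (0.395 in unsorted and 0.430 in sorted cells), STRG.7015 (0.392 in unsorted and 0.424 in sorted cells), STRG.13292 (0.374 in unsorted and 0.416 in sorted cells) and STRG.41044 (0.369 in unsorted and 0.364 in sorted cells) came next. The next 5 were STRG.32319, STRG.7810, STRG.13294, STRG.7303 and STRG.17556, with r from 0.325 to 0.356 in unsorted and from 0.309 to 0.414 in sorted cells. Over the members the median r was 0.217 in unsorted and 0.25 in sorted cells, and 0.244 and 0.251 in the sorted runs taken apart. Over all genes tested it was 0.0057 and 0.0067.

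The list has no natural edge. STRG.28651, STRG.11150 and STRG.22712, the last 3 members, had a lower r of 0.1624, 0.1623 and 0.1619, while STRG.8038, STRG.36475 and STRG.423, the next 3 genes, had 0.1616, 0.1612 and 0.1612. Besides AshA, 4 genes with a name in the study's text or tables ranked inside this range and were left out by the rule. Their r in unsorted and sorted cells was 0.235 and 0.231 for FGF22-like, 0.216 and 0.212 for EMX-like, 0.209 and 0.199 for the GLWamide precursor, and 0.265 and 0.191 for Damicornin. The members were found in 129 to 12945 cells each, with a median of 786.

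**Figure D1:**
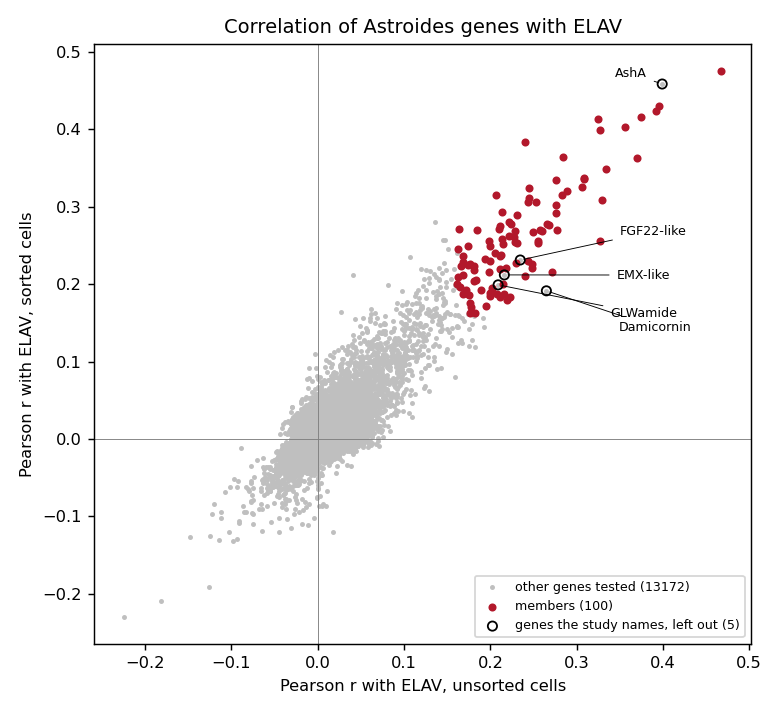
Pearson r with ELAV over unsorted cells (x axis) and over sorted cells (y axis) for each of the 13277 other genes in at least 50 cells. The 100 members, in red, were chosen by this measure and lie at or above 0.1619 on both axes, and the 5 circled genes were left out because the study names them.

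To see in which cells the members were transcribed, all cells were clustered on 1953 variable genes from which ELAV and the 100 members had been removed, which gave 33 clusters. Of these, 6 with 2615 cells were called neural-like, because ELAV and AshA were both above 1.5 times their level in all other cells, at least 3 of 7 neural markers had 10 UMIs or more, and no type outside neurons had 3 or more of its markers, and 50% or more of its list, above 4 times that level. This naming rule was set after levels in these clusters were known. Levels are given as UMIs of a gene per 1000000 UMIs of all the cells of the class or cluster (CPM). They are not corrected for gene length and are used to compare 1 gene between cells, and an order of abundance between genes is one of UMIs captured at the 3′ end. ELAV stood at 679 to 2569.8 CPM in the 6 neural-like clusters and at 18.6 to 424 CPM in the other 27. Neural-like cells were 10.7% of unsorted cells and 13.8% and 13.6% of the cells of the sorted runs, with medians of 814, 1089 and 1129 UMIs against 814, 944 and 1029 in the other cells of the same matrices.

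The 6 clusters differed in their peptide genes. Cluster 16 (440 cells) held 13213 CPM of the GLWamide precursor and 28627 CPM of HFRIa, and all 9 markers of GLWamide neurons, of which STRG.1904 and STRG.18268 are members, were raised there above 4 times. Cluster 19 (297 cells) held 26143 CPM of the RFamide precursor, and cluster 26 (165 cells) 8994 CPM of GVWamide with 7838 CPM of RFamide. Cluster 15 (470 cells) held 40006 CPM of Damicornin, named for an antimicrobial peptide of Pocillopora. In cluster 4 (1133 cells) and cluster 30 (110 cells) no peptide of this list passed 2282 CPM, and ELAV at 793 and 929 CPM and AshA at 756 and 1349 CPM were the markers they rested on. AshA was weakest in cluster 15, at 253 CPM and 1.59 times its level in all other cells.

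Together the members made up 5.64% of all UMIs in neural-like cells and 0.862% in other cells, and 3.54% and 0.416% without the 3 most abundant of them. All 100 were higher in neural-like than in other cells in each of the 3 matrices, as were 30.8% of all genes tested. The median ratio of the levels was 13.2, with 13.1 in the sorted and 12.6 in the unsorted sample, and over all genes tested it was 1.04. The ratio was above 2 in both samples for 99 members (9.33% of all genes), above 4 for 95 members (4.78% of all genes), above 10 for 60 (2.17%) and above 20 for 27 (1.02%). Most of the UMIs lay in neural-like cells for 85 members (4% of all genes) and in other cells for 15. These counts restate the choice of the members and show no more than its size. Free RNA and low transcription in the other cells were not separated.

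**Figure D2:**
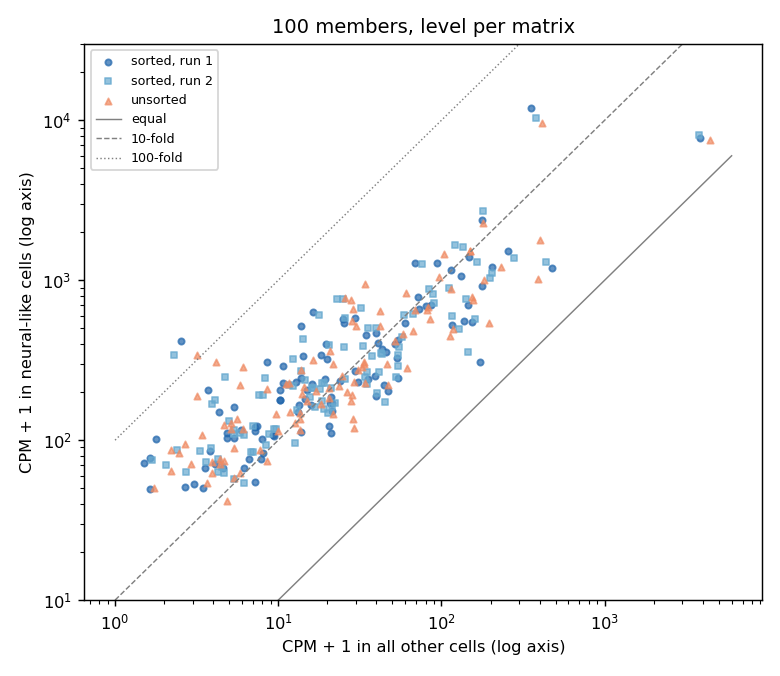
Level of each of the 100 members in neural-like cells (y axis) and in all other cells (x axis), as CPM + 1 on log axes, with 1 point per member and matrix. Points of all 3 matrices lie above the line of equal level, with the median member at 13.2 times, and the pair of genes at the upper right are STRG.17556 and STRG.38218.

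The member with the highest r ranked among the 10 largest ratios as well. STRG.33540 stood at 771 CPM in the unsorted sample and 513 and 607 CPM in the sorted runs for neural-like cells, and at 24.6, 12.7 and 16.7 CPM in the other cells of the same matrices, in the same order. Its levels in neural-like cells lay above all those in other cells, by a ratio of 35.4. STRG.14064 stood at 2267 CPM in the unsorted sample and 1289 and 1649.8 CPM in the sorted runs, against 179, 93.1 and 120.0 CPM. It was the more abundant of the pair in both kinds of cell, and its ratio was 13.2. STRG.7015 stood at 1047 CPM in the unsorted sample and 783 and 877 CPM in the sorted runs, against 95.5, 71.1 and 83.4 CPM, a ratio of 10.6. STRG.41044 stood at 877 CPM in the unsorted sample and 688 and 813 CPM in the sorted runs, against 113, 79.8 and 87.3 CPM, a ratio of 8.68. None of the 4 has a described function, and in each the neural-like and other levels did not overlap over the 3 matrices, as for 19% of all genes tested.

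STRG.17556, whose product has a predicted signal peptide, the sequence that sends proteins to the secretory route, was the most abundant member in neural-like cells. It reached 9557 CPM in the unsorted sample and 11997 and 10338 CPM in the sorted runs, against 409, 354 and 377 CPM in other cells, a ratio of 28.9. Most of this came from cluster 16, where it took 42112 CPM, against 7869 in cluster 4. Pooled levels were 3182, 1839, 1209 and 568 CPM in clusters 30, 26, 19 and 15, and there the sorted runs differed widely. Runs 1 and 2 held 32.4 and 5793 CPM in cluster 30, and 3939 and 544 CPM in cluster 26. They held 2270 and 64.2 CPM in cluster 19, and 26.5 and 982 CPM in cluster 15. STRG.32319 was likewise highest in clusters 16 and 4, at 2983 and 514 CPM, with 29.8 to 161 CPM in the other 4 neural-like clusters.

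Among the rest of the first 20, STRG.8508 was the most abundant in neural-like cells, at 1775 CPM in the unsorted sample and 1519 and 1369 CPM in the sorted runs, against 401, 256 and 278 CPM in other cells. STRG.21430 and STRG.18591 followed in the pooled level, the former at 1525 CPM in the unsorted sample and 1165 and 1620.3 CPM in the sorted runs, against 148, 114 and 134 CPM, and above STRG.8508 in sorted run 2. STRG.18591 stood at 1216 CPM in the unsorted sample and 1211 and 1114 CPM in the sorted runs, against 229.6, 202 and 204 CPM. The least abundant was STRG.29983, at 215 CPM in the unsorted sample and 206 and 238 CPM in the sorted runs, against 13.3, 9.25 and 13.5 CPM. The ratios of the first 20 ran from 5.06 to 35.4.

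With each cell thinned to 500 UMIs, ELAV was seen in 36.5% of 2214 neural-like cells (95% exact interval 34.5 to 38.6%) and in 5.38% of 1300 gastroderm-like cells (4.22 to 6.75%), a class named by markers of the inner layer. STRG.14064 was seen in 38.7% and 3.38%, STRG.33540 in 19.9% and 0.769%, and STRG.29983 in 10.5% and 0.231%. Before thinning the shares in neural-like cells were 52.7% for ELAV, 52% for STRG.14064, 31.7% for STRG.33540 and 22.2% for STRG.29983. Over the 20 members with the highest r, the thinned shares in neural-like cells ran from 10.5% to 38.7% and in gastroderm-like cells from 0.231% to 7.54%. In cluster 0 (1522 cells at this depth), an unnamed cluster, they were at most 9.4%, and STRG.8508 and STRG.18591 were seen there more often (9.4 and 8.15%) than in gastroderm-like cells (3.54 and 2.69%). The members were chosen on these cells, so higher shares in neural-like cells follow from the choice. Intervals cover counting error only, since the cells of a sample are no replicates.

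The members were not all transcribed in the same neurons. Above 2 times the level of the other cells, 97 members were found in cluster 16 (17.3% of all genes), 92 in cluster 4 (11.8%), 83 in cluster 26 (15.8%), 79 in cluster 30 (17.6%), 72 in cluster 19 (14.6%) and 57 in cluster 15 (9.32%). All 6 clusters exceeded that level for 30 members (0.941% of all genes), 5 for 38, 4 for 17 and 3 for 13, while STRG.31917 passed it in 2 and STRG.18163 in 1. The broad group included STRG.33540, STRG.7015, STRG.41044, STRG.7810, STRG.24499, STRG.22065, STRG.29983 and STRG.40387 among the first 20. STRG.41044 was fairly even, at 543 to 1556 CPM over the 6 clusters, and STRG.13884, which passed in 5 clusters, ran from 171 to 859.9 CPM.

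The highest level of a member fell in cluster 16 for 39 genes, in cluster 30 for 22, in cluster 26 for 13, in cluster 19 for 8, in cluster 15 for 4 and in cluster 4 for 3. For 89 members it thus lay in a neural-like cluster, as for 26.5% of all genes tested. The other 11 peaked in the neurosecretory-1-like cluster 25 (3 genes), the neurosecretory-2-like cluster 24 (3), the AshA-rich cluster 27 (3), cluster 31 (1) and cluster 9 (1). Cluster 4, by far the largest of the neural-like clusters, raised 92 members yet was the highest for only STRG.13294, STRG.37109 and STRG.25577, with STRG.13294 at 771 CPM there and 761 in cluster 16.

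**Figure D3:**
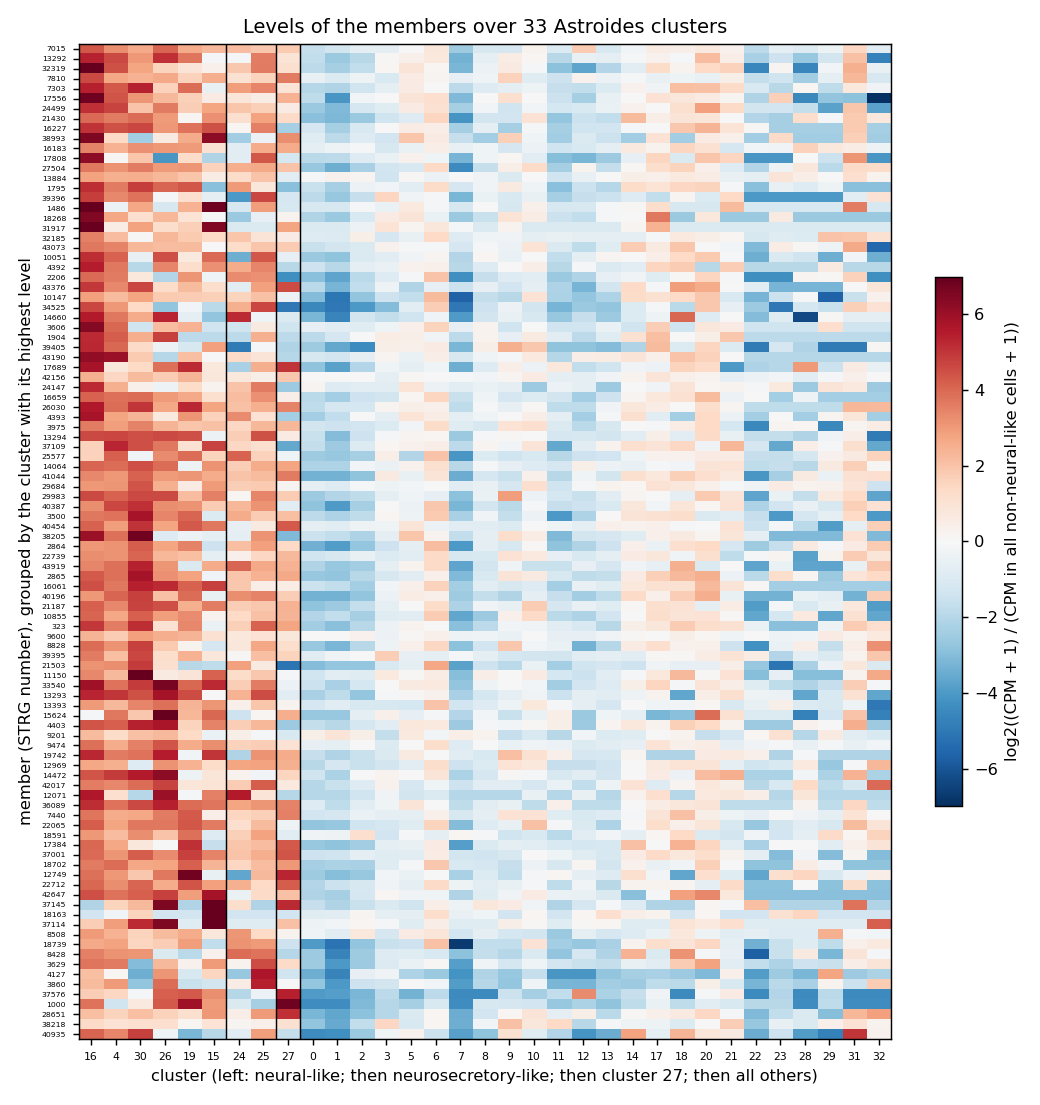
Level of each member (rows) in each of the 33 clusters (columns) relative to its level in all cells outside the neural-like clusters, as log2 of CPM + 1, red for higher and blue for lower. The 6 columns at the left are the neural-like clusters, the next 2 the neurosecretory-like ones and the next is cluster 27, and red blocks mark the 39 members highest in cluster 16, the 22 in cluster 30 and the 13 in cluster 26.

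The first 20 members also told the neural-like clusters apart. STRG.33540 was highest in cluster 26, at 1806 CPM, against 1104 in cluster 16, 669 in cluster 15 and 247 in cluster 4. STRG.14064 was highest in cluster 30, at 2769 CPM, and lowest of the 6 in the RFamide-rich cluster 19, at 94.7 CPM. There the sorted runs, at 69.5 and 40.9 CPM, were below their other cells and the unsorted sample, at 276 CPM, was above its own. STRG.29684 and STRG.40387 were also highest in cluster 30 (1878 and 807 CPM), while STRG.7440, STRG.22065 and STRG.18591 were highest in cluster 19 (2235, 682 and 3076 CPM). STRG.21430 stood at 2049 CPM in cluster 16, 1943 in cluster 30, 1619 in cluster 4 and 1215 in cluster 15, and at only 143 in cluster 19. STRG.7303 and STRG.13292 were nearly missing from cluster 15 (13.4 and 22.4 CPM), and STRG.24499 ran from 43.3 CPM in cluster 19 to 448 in cluster 16. STRG.3629 and STRG.8508 peaked outside the neural-like clusters, as given further on.

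**Figure D4:**
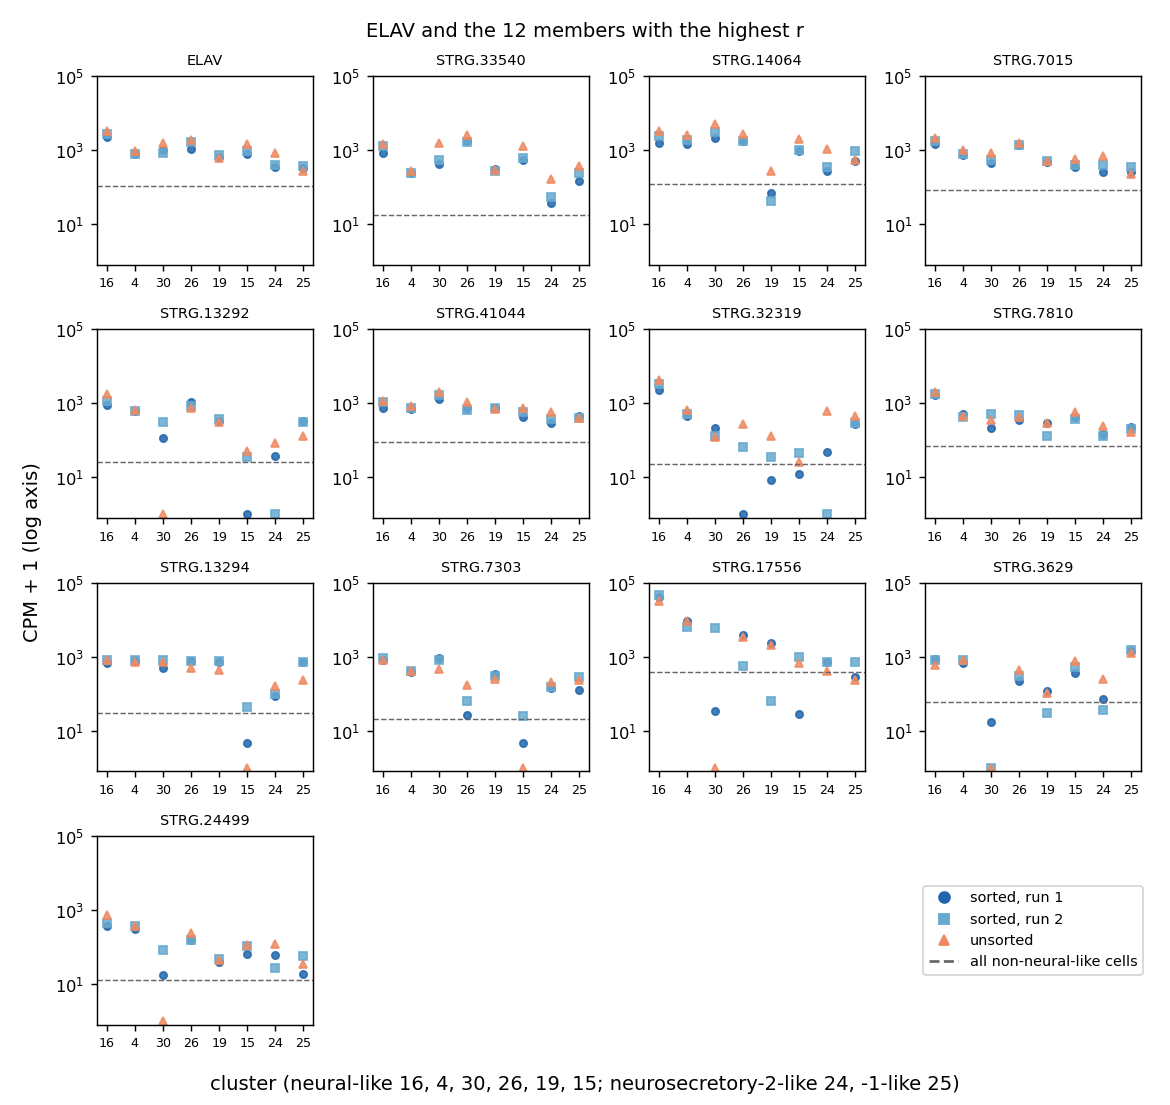
CPM + 1 (log axis) of ELAV and the 12 members with the highest r in the 6 neural-like and the 2 neurosecretory-like clusters, with 1 point per matrix and a dashed line at the level in all cells that are not neural-like. ELAV lies above its line in all 8 clusters, whereas STRG.13292, STRG.13294 and STRG.7303 scatter about their lines in cluster 15, and in cluster 19 STRG.14064 lies below its line in both sorted runs and above it in the unsorted sample.

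Cluster 16, with the most ELAV, was a mixture. By their own peptide UMIs, 85 of its cells were rich in GLWamide, 33 in HFRIa, and 322 in neither, a division made after the values were seen. ELAV stood at 3569, 926 and 2553 CPM in them, and members held 15.4%, 4.79% and 12.1% of their UMIs. HFRIa itself took 277543 CPM of the HFRIa-rich cells, which lowers all other levels there. In the 33 HFRIa-rich cells 22 members had no UMI, where 3 UMIs would be 47.9 CPM, against 6 in the GLWamide-rich and 3 in the remaining cells. The share of all genes with no UMI was not taken for these cells.

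Several members split these cells sharply. STRG.17556 took 62112 CPM of the GLWamide-rich and 43087 CPM of the remaining cells, but 79.9 CPM, from 5 UMIs, of the HFRIa-rich cells. STRG.32319 had the same order, with 5099.8, 2772 and 719 CPM. The carboxypeptidase STRG.18268, the tubulin STRG.38993 and STRG.39405 were mostly in GLWamide-rich cells, at 2237, 2065 and 5960.3 CPM, against 194, 187 and 152 in the cells with neither peptide. The ion channel gene STRG.14660 went the other way, with 109 CPM in GLWamide-rich cells and 5034 CPM in cells with neither, as did STRG.34525 (9.06 and 1092 CPM) and the zinc finger gene STRG.17808 (344 and 1610.4 CPM). STRG.18591 was highest in the HFRIa-rich cells, at 3498 CPM against 2473 and 1274. With so few cells pooled over 3 matrices, these are descriptions of pooled cells and no test was made.

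Cluster 15 was a mixture too. Its 97 cells with 20 or more UMIs of Damicornin held 2791 CPM of ELAV, slightly above the 2569.8 CPM of cluster 16, and 562 CPM of AshA, whereas the other 373 held 185 and 126 CPM and only 1.08% of UMIs in members. The latter cells thus carried little of what named the cluster, and counting them as other cells moved the median ratio of the members from 13.2 to 15.02. In the Damicornin-rich cells 69 members were above 2 times the level of other cells, with no share of all genes taken there. Some of the leading members were not above it. STRG.13292, STRG.13294 and STRG.7303 stood at 46.0, 30.7 and 15.3 CPM there, from 9, 6 and 3 UMIs, and STRG.32319 at 76.7 CPM. STRG.33540, STRG.21430, STRG.29684 and STRG.22065 were all high, at 2208, 3838, 2198 and 1375 CPM.

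All 5 members with the largest ratios of neural-like over other cells were found in these Damicornin-rich cells. STRG.18163 had 339 CPM in the unsorted sample and 418 and 342 CPM in the sorted runs of neural-like cells and 2.17, 1.54 and 1.30 CPM in other cells, a ratio of 241. Its UMIs lay almost wholly in cluster 15, at 2041 CPM, of which the Damicornin-rich cells held 6849 CPM, and no other neural-like cluster passed 6.45 CPM. STRG.37114 (95.5), STRG.1486 (79.4), STRG.31917 (74.8) and STRG.37145 (73.0) followed in ratio. STRG.37145 and STRG.37114 were shared with cluster 26, at 391 and 165 CPM, and STRG.1486 and STRG.31917, at 808 and 593 CPM in Damicornin-rich cells, were somewhat higher over cluster 16 (287 and 241 CPM) than over cluster 15 (236 and 176 CPM). GLWamide-rich cells held no UMI of STRG.1486, where 3 UMIs would be 27.2 CPM. STRG.18163, STRG.37114, STRG.31917 and STRG.1486 were also found in the fewest cells of all members, 129, 134, 162 and 175, the last of which STRG.3606 shared.

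In clusters 26, 30 and 19 a few members stood above their levels in the other neural-like clusters, some of them by far. STRG.15624 took 5758 CPM of the GVWamide-rich cluster 26 and at most 428 CPM of any other neural-like cluster, with 1222 CPM in the Damicornin-rich cells. STRG.11150 took 4673 CPM of cluster 30, with its next highest level, 137 CPM, in cluster 15, and STRG.2865, which the study calls a calmodulin in a heat map only, stood at 2091 CPM in cluster 30 and at 29.8 to 703 in the other neural-like clusters, although the HFRIa-rich cells of cluster 16 held 2843 CPM. Among the neural-like clusters STRG.38205 was found mostly in cluster 30 (936 CPM), cluster 16 (573) and cluster 4 (122), with 3.66 to 5.41 CPM in the other 3, and the GLWamide-rich cells of cluster 16 held more, 1639.5 CPM. STRG.12749 took 1339 CPM of the RFamide-rich cluster 19, and 178 CPM or less of the other neural-like clusters. These 5 genes were picked after their values were seen.

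Part of the list was also raised in the neurosecretory-like clusters. The study describes its neurosecretory cells as expressing neural markers, ELAV and AshA among them. In cluster 25, where all 9 markers of neurosecretory 1 cells were raised, 76 members were above 2 times the level of the other cells (8.41% of all genes), and in cluster 24, where all 8 markers of neurosecretory 2 cells were raised, 57 (6.39%). ELAV stood at 347 and 424 CPM in clusters 25 and 24, and AshA at 618 and 234 CPM, against 253 CPM of AshA in the neural-like cluster 15. STRG.4127, with a muconolactone isomerase domain, peaked in cluster 25 at 7523 CPM, against 1250.3 in cluster 26, the highest neural-like one. STRG.3629 and STRG.3860 were highest there as well, at 1433 and 2189 CPM, against 806 in cluster 16 and 757 in cluster 26. STRG.8508, STRG.18739 and STRG.8428 were highest in cluster 24, at 2516, 1695 and 803 CPM, and in the neural-like clusters they reached 2285, 1426 and 606 CPM.

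Cluster 27 (161 cells) had AshA at 1075 CPM, like the neural-like clusters, but ELAV at 81.7 CPM, like the rest of the larva, and it took no name. It was above 2 times the level of other cells in 48 members (17.1% of all genes) and was the highest cluster of all for STRG.1000 (2306 CPM), STRG.28651 (1577) and STRG.37576 (968). STRG.41044, STRG.7440, STRG.7810 and STRG.17689 stood at 1137, 1282, 886 and 5052 CPM there, within the range of the neural-like clusters. STRG.33540, the member with the highest r, was at 12.6 CPM. Of the unnamed clusters, cluster 20 (273 cells) held 42 members above that level (5.83%) and cluster 18 (371 cells) 35 (8.61%), with ELAV at 136 and 112 CPM. Gland-mucous-like cells of cluster 6 held 34 members above that level (4.99%), with ELAV at 129 CPM, and cluster 31 (97 cells) 33 (7.43%), STRG.40935 among them at 4961 CPM against 4357 in cluster 30.

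The members with the lowest ratios were of different kinds. STRG.38218, abundant in the whole larva, stood at 7489 CPM in the unsorted sample and 7704 and 8073 CPM in the sorted runs of neural-like cells and at 4403, 3839.7 and 3803 CPM in other cells, a ratio of 2.00. It was found in 12945 cells, and its highest levels, 16177 and 13144 CPM, were in cluster 9 and in the gastroderm-like cluster 21. STRG.4127, with a ratio of 2.39, was scarce in many clusters, down to 4.85 CPM in cluster 1, and high outside the neural-like cells in clusters 25 and 29 (7523 and 995 CPM). The ratio of STRG.9201 was 2.78, that of STRG.42156 3.42 and that of STRG.9600 4.01. STRG.9201 still differed between the neural-like clusters, from 320.5 CPM in cluster 15 to 2146 in cluster 26.

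The r within each kind of cell came from the same cells that chose the members, and is a description. Within neural-like cells the median r of the members was 0.213 in the unsorted and 0.218 in the sorted sample, and 96 of 100 were above 0.1 in both, against 2.62% of all genes. The neural-like class still holds the 373 Damicornin-poor cells of cluster 15, low in ELAV and in members, so part of that r may lie between those cells and the rest, which was not tested. STRG.33540 had 0.457 and 0.462 there. STRG.38218, abundant everywhere, had 0.164 and 0.197 over all cells and 0.448 and 0.404 within neural-like cells, against 0.040 and 0.031 in other cells. In other cells the median was 0.082 and 0.081, and 22 members were above 0.1 in both (0.173% of all genes). STRG.32319, STRG.33540, STRG.13294 and STRG.13292 led there, with a lower r of 0.172, 0.172, 0.164 and 0.155. The cells of a sample share its library, the cells' depth enters both genes, and r of this size in sparse counts is weak.

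Cluster 16 carried part of the correlations. Without its 440 cells the median r of the members was 0.182 in the unsorted and 0.196 in the sorted sample, 95 of 100 stayed above 0.1 in both (1.72% of all genes), and 77 of the 100 would still have been chosen. The lowest sorted r without it were those of STRG.24147 (0.071), STRG.17689 (0.080) and STRG.18268 (0.083).

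Among the annotated members, 2 belong to the machinery by which neurons receive signals. STRG.14660 encodes a ligand-gated ion channel of the family of nicotinic and related receptors, with a signal peptide, and stood at 1462 CPM in the unsorted sample and 1279.7 and 1269 CPM in the sorted runs of neural-like cells against 103, 68.1 and 75.1 CPM. It was uneven, with 3619 CPM in cluster 16, 3192 in cluster 26 and 2935 in the neurosecretory-2-like cluster 24, but 48.7 in cluster 19 and 10.4 in cluster 15. STRG.1904 encodes a rhodopsin-family receptor that the study notes as a peptide receptor. It was rare, at 69.5 CPM in the unsorted sample and 49.8 and 61.8 CPM in the sorted runs, against 1.93, 1.67 and 3.29 CPM, and it was highest in cluster 16, at 132 CPM, with none of its UMIs in clusters 19 and 15.

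STRG.18268 encodes a zinc carboxypeptidase, an enzyme class that trims the ends of proteins and, in some members, of peptide precursors. It stood at 219 CPM in the unsorted sample and 74.8 and 109 CPM in the sorted runs, against 4.83, 5.66 and 4.85 CPM, and its level in cluster 16, 545 CPM, was far above the 39.1 CPM of cluster 4. STRG.38993 encodes a tubulin, a subunit of microtubules, and stood at 284 CPM in the unsorted sample and 113 and 176 CPM in the sorted runs, against 5.07, 6.17 and 3.12 CPM. It was shared by cluster 16 (509 CPM) and cluster 15 (411 CPM), with 2065 and 1273 CPM in their GLWamide-rich and Damicornin-rich cells, and cluster 30 held none of its UMIs, where 3 UMIs would be 19.4 CPM.

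Of the likely regulators, STRG.17808, a C2H2 zinc finger gene, stood at 168 CPM in the unsorted sample and 243 and 227 CPM in the sorted runs against 17.2, 12.7 and 17.6 CPM, and was highest in cluster 16 (1287 CPM) and the neurosecretory-1-like cluster 25 (347 CPM). STRG.8428, whose Clytia ortholog has the helix-loop-helix domain of many neural transcription factors, stood at 415 CPM in the unsorted sample and 328 and 338 CPM in the sorted runs against 50.7, 52.1 and 53.1 CPM. It was even between clusters 16, 4 and 30 (606, 479 and 452 CPM) and low in clusters 26, 19 and 15 (25.6, 13.5 and 65.6 CPM). For STRG.8428, STRG.18739, STRG.3860 and STRG.40196 the tables give a domain only for the Clytia ortholog. STRG.18739, a tetraspanin by that route and so a likely membrane organizer, stood at 1008 CPM in the unsorted sample and 925 and 1037 CPM in the sorted runs, against 181, 176 and 198 CPM. It ran from 56.6 CPM in cluster 15 to 1426 CPM in cluster 19 over the neural-like clusters. The gland-mucous-like clusters 6 and 10 held 780 and 386 CPM of it. STRG.40196, with ankyrin repeats, which bind other proteins, stood at 149 CPM in the unsorted sample and 105 and 117 CPM in the sorted runs, against 10.9, 8.48 and 8.65 CPM. The thioredoxin gene STRG.3860, of a family that reduces disulfide bonds, had a ratio of 5.53 and peaked in cluster 25.

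Levels in neural-like cells were much alike in sorted and unsorted larvae. The sorted over unsorted ratio was within 1.5 times for 88 of 100 members (41.7% of all genes tested, most of them with far fewer UMIs), with a median of 0.968. Between the sorted runs 97 members lay within 1.5 times, for which no share of all genes was taken. Beyond 2 times were STRG.13293 (389 CPM sorted, 117 unsorted), STRG.17689 (2572 and 834), STRG.11150 (270.1 and 127) and, higher in the unsorted sample, STRG.18268 (94.6 and 219). STRG.13293 and STRG.17689 differed in the same direction in other cells, from 4.11 unsorted to 13.1 and 13.2 CPM sorted and from 59.9 to 175 and 179 CPM. With 1 biological sample of each kind there is no test.

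Some members may not be separate genes. Consecutive numbers were held by 9 of them, STRG.13292 to STRG.13294, STRG.4392 and STRG.4393, STRG.39395 and STRG.39396, and STRG.2864 and STRG.2865. STRG.4392 and STRG.4393 also follow Damicornin (STRG.4391), and STRG.18163 precedes a gene the study names Short-tm (STRG.18164). The 3 genes STRG.13292, STRG.13293 and STRG.13294 shared their absence from cluster 15 (22.4, 11.9 and 22.4 CPM) and their presence in clusters 16, 4, 26 and 19, but only STRG.13293 differed 3.34 times between the samples. STRG.4392 and STRG.4393 were both highest in cluster 16 (173 and 283 CPM), not in the Damicornin-rich cluster 15 (34.3 and 14.9 CPM). Coordinates of the gene models were not used here, so copies, neighbors and split models of 1 gene were not told apart.

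The rule used no cells of Pocillopora, another coral. The orthologs that the study's tables give were compared between Pocillopora cells with a UMI of ELAV (XP_027049686.1) and cells with none. The tables give 10 such orthologs, and they list marker and aboral genes only, so the other 90 members were not followed. The study took its markers from these same libraries, so the 10 orthologs are not shown to be independent evidence of the direction. In colony C3 406 cells were ELAV-positive and 4403 negative, with medians of 1386 and 794 UMIs, and in colony C6 505 and 4420 cells with 1287 and 728 UMIs, so ELAV-positive cells were the deeper ones in both. All 9 orthologs with enough UMIs for the test rose in ELAV-positive cells (edgeR quasi-likelihood test on UMI sums with the colony as a block, Benjamini-Hochberg adjusted p under 0.05), and 905 of 12504 genes tested did so (7.24%). Of 1218 other genes in the same ortholog tables, 84 rose (6.9%). None of the 9 fell, nor at an unadjusted p under 0.05 or with DESeq2, against 5.65% of all genes tested and 9.77% of those other genes in the tables. The median log2 difference was 2.36 over the 9 orthologs and -0.02 over all genes tested.

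The largest difference was that of the tubulin gene XP_027038248.1, ortholog of STRG.38993, with 133 against 3.34 CPM in C3 and 124 against 3.85 CPM in C6 (log2 difference 5.07 ± 0.23 (SE), adjusted p = 3.66e-06). The ortholog of the muconolactone isomerase gene STRG.4127 followed, with 24.4 against 3.53 CPM and 173 against 12.8 CPM (log2 difference 3.41 ± 0.28 (SE), adjusted p = 0.000111). Those of the zinc finger gene STRG.17808 and the signal peptide gene STRG.17556 stood at 81.4 against 10.4 CPM and 93.8 against 8.98 CPM (log2 difference 3.10 ± 0.23 (SE), adjusted p = 6.09e-05) and at 5027 against 523 CPM and 5158 against 698 CPM (log2 difference 3.00 ± 0.09 (SE), adjusted p = 5.4e-07). The last was the most abundant of the 10 orthologs in ELAV-positive cells of both colonies, and in ELAV-negative cells as well. The ion channel gene of STRG.14660 had 51.6 against 7.85 CPM and 70.9 against 15.2 CPM (log2 difference 2.36 ± 0.25 (SE), adjusted p = 0.000401).

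The carboxypeptidase gene of STRG.18268 (log2 difference 1.96 ± 0.27 (SE), adjusted p = 0.00192), the ankyrin gene of STRG.40196 (log2 difference 1.57 ± 0.20 (SE), adjusted p = 0.00137), the helix-loop-helix gene of STRG.8428 (log2 difference 1.52 ± 0.18 (SE), adjusted p = 0.000727) and the tetraspanin gene of STRG.18739 (log2 difference 1.05 ± 0.16 (SE), adjusted p = 0.00315) rose by less. The tetraspanin stood at 186 against 94.8 CPM and 225 against 93.2 CPM. In both colonies all 10 orthologs were higher in ELAV-positive cells, the receptor gene of STRG.1904 included, which had too few UMIs for the test (2 against 6 in C3 and 10 against 9 in C6, or 2.71 against 1.18 CPM and 11.4 against 1.92 CPM). Without the colony as a block the orthologs of STRG.4127 and STRG.8428 did not pass (log2 difference 3.55 and 1.51, adjusted p = 0.107 and 0.0829, edgeR), and with all cells thinned to 500 UMIs 6 of 9 passed, those of STRG.18739, STRG.17808 and STRG.14660 being lost (log2 difference 1.10, 2.02 and 2.29, adjusted p = 0.0982, 0.0569 and 0.0993). Of the 10 orthologs, 5 come from the study's table of aboral cell-type genes, which was chosen on these libraries, and are not independent evidence of the direction. The rest, and the Clytia orthologs, come from the study's lists of aboral genes or of cluster markers. Markers were taken from the same libraries, and the source list of each ortholog was not separated here. These orthologs are therefore not shown to be independent evidence either.

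**Figure D5:**
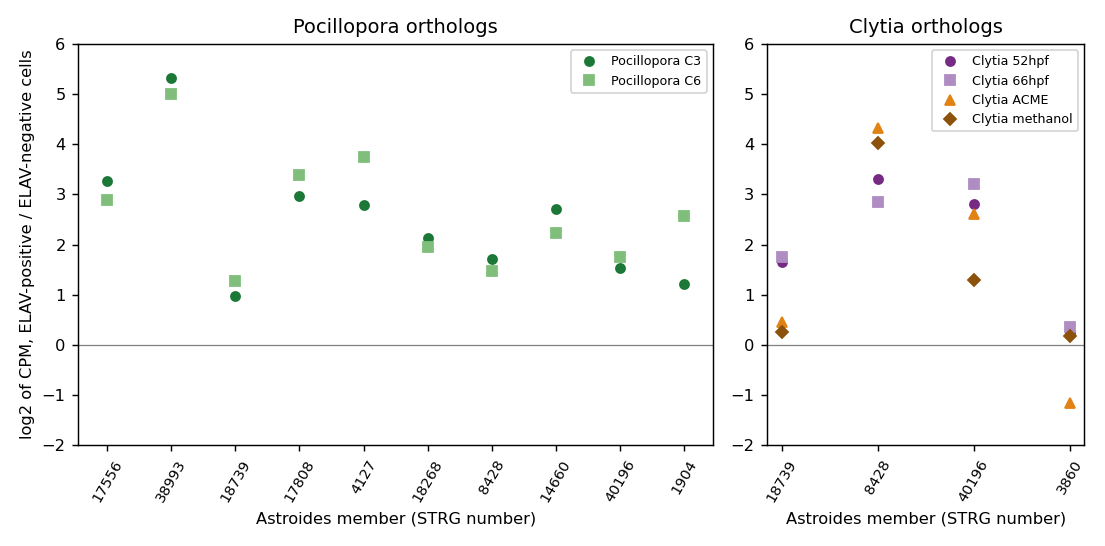
Log2 of the ratio of CPM in ELAV-positive over ELAV-negative cells (y axis) for the orthologs of members (x axis) in each biological sample of Pocillopora (left, 10 orthologs, colonies C3 and C6) and Clytia (right, 4 orthologs, 4 samples), where 0 is no difference. All 20 Pocillopora points lie above 0, as do 15 of the 16 Clytia points, the exception being STRG.3860 in the ACME sample.

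In Clytia, whose line parted from the corals early in cnidarian history, 4 orthologs were given, and 2 of them rose in cells with a UMI of ELAV-2 (XLOC_030971), against 12.7% of the 11408 genes tested and 15.4% of the other genes in the same tables (edgeR, the sample as a block over 4 samples). None of the 4 fell, nor at an unadjusted p under 0.05 or with DESeq2, against 9.95% of all genes and 6.7% of the other genes in the tables. ELAV-2-positive cells numbered 221 to 628 per sample, with medians of 1796 to 2589.5 UMIs against 885 to 1555.5 in negative cells. MSTRG.17658, the helix-loop-helix ortholog of STRG.8428, was higher in each sample, at 39.4 against 3.99 CPM at 52 hpf, 28.3 against 3.92 CPM at 66 hpf, 45.7 against 2.27 CPM in ACME-dissociated and 48.8 against 2.99 CPM in methanol-fixed cells (log2 difference 3.32 ± 0.32 (SE), adjusted p = 6.97e-05). The ankyrin gene XLOC_044137, ortholog of STRG.40196, was higher too, at 77.0 against 10.9 CPM, 106 against 11.6 CPM, 107 against 17.4 CPM and 93.2 against 38.3 CPM (log2 difference 2.26 ± 0.25 (SE), adjusted p = 0.000174). Of the 3 members with an ortholog tested in both species, these 2 passed in both. Differences between the species were not tested.

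The tetraspanin XLOC_044838, ortholog of STRG.18739, was higher in 4 of 4 samples but narrowly missed the threshold (log2 difference 0.78 ± 0.25 (SE), adjusted p = 0.0503), with ratios of 3.12 and 3.34 at 52 and 66 hpf and of 1.38 and 1.19 in the ACME-dissociated and methanol-fixed cells. It passed under 5 alternatives, among them DESeq2 (adjusted p = 0.025), and its adjusted p ran from 0.0203 to 0.662 over all of them. The thioredoxin gene XLOC_030873, ortholog of STRG.3860, did not pass (log2 difference -0.34 ± 0.24 (SE), adjusted p = 0.37), and stood at 145 against 326 CPM in the ACME sample, where its ratio went against the other 3. With cells thinned to 500 UMIs its log2 difference was -0.98 and passed (adjusted p = 0.00418, edgeR), and without the ACME sample the difference was 0.0011 (adjusted p = 0.999).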

How the data were processed

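The authors deposited matrices of UMI counts per gene and barcode, made with STARsolo per the labels (version not given in the sources used here). The values are raw UMI counts with no normalization, and no other columns of per-sample values were used (0 found). Astroides cells were kept with 300 to 10000 UMIs, 200 to 3000 genes and at most 0.4% mitochondrial UMIs. The study's methods state the lower limits and the mitochondrial limit, but not the upper limits. The study also removed an Astroides cluster without markers of its own and clustered again, which was not done here. Pocillopora limits were 300 to 20000 UMIs, 200 to 4000 genes and 5%, and Clytia limits 300 to 75000 UMIs, 200 to 5000 genes and 20%. No doublet caller was run here, and the sort was meant to remove doublets from 1 Astroides sample only.

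Counts were scaled to 10000 per cell and log1p-transformed for Pearson's r. Cells were clustered with scanpy 1.11.5 and leidenalg 0.10.2 (26 components, 50 neighbors, resolution 0.9), with ELAV and the members removed from the variable genes. Levels are sums of UMIs per 1000000 UMIs of the same cells, so free RNA and depth remain in them, and an abundant peptide lowers all other levels. The members, gene lists and tests were chosen with earlier results of these data known. Named genes are the first 20 members, annotated members, the 5 highest and 5 lowest ratios, the genes at the edge of the list and the orthologs tested, and any other gene named was picked after its values were seen.

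UMI sums of ELAV-positive and ELAV-negative cells per biological sample were tested with edgeR 4.0.16 (TMM, filterByExpr, quasi-likelihood, Benjamini-Hochberg adjustment over all genes tested) in R 4.3.3. Both sums of a sample come from the same animals, which pairs them, so the sample was a block. Technical runs were summed. Each SE printed is the size of the log2 difference over the square root of the test's F value, so it restates the test. DESeq2 gave a larger SE for each ortholog tested. In Pocillopora it was 0.47 against 0.23 for that of STRG.38993 and 0.24 against 0.09 for that of STRG.17556. In Pocillopora the 2 samples are colonies of 1 genotype and leave 1 residual degree of freedom. The quasi-likelihood test then takes most of its spread from all genes tested together. Its p-values say little of the spread of 1 gene between the colonies, and nothing of other genotypes. The test was tried on simulated counts with 1 spread set for every gene, not estimated from these data. There 72% of genes raised 2 times were called in the Pocillopora design (12522 genes) and 80% in the Clytia design (11328 genes). Of genes lowered 2 times 22.4% and 72.5% were called, so in the simulated Pocillopora design a fall was missed more often than a rise. Far fewer genes were changed than were called here, so these shares are no measure of power in these data. Alternatives were other clusterings, thinning to 500 UMIs, DESeq2 1.42.0, no low-count filter, no block, an ELAV limit of 2 UMIs and leaving out samples. Sequences and coordinates of the members were not used here, and columns of the authors' own marker statistics were not used.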

Additional observations from a re-analysis of the deposited data

Results flagged for a closer look

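XLOC_030873, the Clytia thioredoxin ortholog of STRG.3860, had a log2 ratio of -1.16 between ELAV-2-positive and ELAV-2-negative cells in the ACME-dissociated sample, far from the other 3 samples, at 0.24 (52 hpf), 0.36 (66 hpf) and 0.17 (methanol-fixed). Its gap to the nearest of them was 0.873 of the whole range, above Dixon's 95% limit for 4 samples, which chance passes in about 1 in 20 groups. All 4 Clytia orthologs were checked in this way, so a pass by chance in any of them is more likely than that. The ratio of CPM was negative in the ACME sample and slightly positive in the other 3 samples, and that difference was not tested. In the edgeR fit without the ACME sample, the log2 difference was only 0.0011.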

How the results depend on the processing

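Of the 100 members, 95 were chosen again with the study's aboral table left out, 98 with the genes named only in heat maps left out, 80 with 50 cells required in each sample, 85 with cells thinned to 500 UMIs, 95 to 96 without one sorted run, and all 100 with no mitochondrial limit. The median ratio of 13.2 was 12.6 to 13.1 when 1 sample was left out. It was 15.1 and 15.6 at Leiden resolutions 0.6 and 1.5, 14.8 with thinned cells, 6.03 for cells with a UMI of ELAV against cells with none and, as alternatives chosen after seeing the data, 10.9 without cluster 16 and 15.02 with Damicornin-poor cells counted as other cells. The count of Pocillopora genes that rose, 905, was 404 without the block that pairs the sums, 368 with DESeq2 and 204 with thinned cells. Those that fell, 706, were 172 without the block, 202 with DESeq2, 1327 with no filter, 1063 with at least 2 UMIs of ELAV and 233 with thinned cells. Clytia genes that rose, 1451, were 870 without the block and 778 with thinned cells, and those that fell, 1135, were 373 without the block and 2071 with at least 2 UMIs. Without the block 7 of 9 Pocillopora and 2 of 4 Clytia orthologs passed as a rise. With thinned cells 1 Clytia ortholog rose and 1, XLOC_030873, fell (adjusted p = 0.00418, edgeR), and MSTRG.17658 had too few UMIs for the test. Leaving out 1 Clytia sample gave 1008 to 1891 genes that rose, 825 to 1264 that fell and 2 to 3 orthologs. The difference of XLOC_030873, -0.34, ran from -0.45 to 0.0011 when 1 sample was left out, the latter without the ACME sample. Leaving out 1 Pocillopora colony gave values with no test. The causes of these changes were not tested. With 2 samples in each coral, few cells in clusters 26 and 30, and 10 and 4 orthologs given for 100 members, small differences were not detectable at this depth.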
